A study of Mus musculus with 20 samples.

Results

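Glycogen is the branched glucose store of heart muscle, and 9 genes that make it, break it down or control that balance are described here. They are *Ugp2*, *Gyg*, *Gys1* and *Gbe1* for synthesis, *Pygm*, *Pygb* and *Pygl* for breakdown, and *Phka1* and *Ppp1r3c* for control. They were taken by gene name from the 23420 genes counted, and all 9 passed the filter for low expression. The measurements are poly-A RNA-seq of whole hearts from 20 wild type C57BL/6 males (C57BL/6J in the methods) aged 9 weeks. From 3 weeks of age and for 6 weeks, 10 mice received a control diet and 10 an iron-deficient diet that made them anemic (IDA mice).

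In the pathway, UDP-glucose pyrophosphorylase (*Ugp2*) makes the activated glucose, glycogenin (*Gyg*) primes the particle, glycogen synthase (*Gys1*) extends the chains and the branching enzyme (*Gbe1*) branches them. Glycogen phosphorylase releases glucose 1-phosphate from the chain ends, and exists as muscle (*Pygm*), brain (*Pygb*) and liver (*Pygl*) isoforms. Phosphorylase kinase, whose muscle alpha subunit is *Phka1*, activates phosphorylase, and protein phosphatase 1, held on the particle by targeting subunits such as *Ppp1r3c*, turns phosphorylase off and synthase on.

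Each library held between 6682177 and 8960688 read pairs on genes, with a median of 7902932 in control and 6806177 in IDA mice. Levels are in CPM, read pairs scaled to library size with TMM factors. Of 13590 genes tested, 35% were higher and 32.5% lower in IDA mice at an adjusted p below 0.05. Every adjusted p of a gene below comes from the quasi-likelihood test of edgeR, adjusted by Benjamini-Hochberg over all tested genes. All 8 cardiomyocyte markers were present, with summed levels of 4412 to 5300 CPM in control and 3878 to 5441 CPM in IDA mice. Of these, 3 were higher and 1 was lower in IDA mice. *Ryr2*, the largest term of the sum, had means of 1772 and 1247 CPM, while the means of all the others were higher in IDA mice. Erythroid markers were higher in sum in IDA mice, at 109 to 169 CPM summed in control and 163 to 606 CPM in IDA mice (3 of 4 tested higher, 1 lower). Fat markers summed to 47.6 to 77.1 and 70.0 to 89.4 CPM (1 of 3 tested higher), mostly from *Cidea* (means of 52.1 and 71.0 CPM). The mean of *Ucp1* was also higher in IDA mice, while those of *Adipoq* (3.91 and 3.51 CPM), *Plin1* and *Lep* were lower. The part of erythroid and fat markers in the results below was not tested. In whole tissue, fewer cells of a type and less RNA per cell cannot be told apart. IDA mice 3, 4 and 5 stood apart from the other mice of their group on the second principal component (9.56% of the variance), and results that rest on them are also given without them. One mouse per group was excluded from the original study for contamination without being named, so all 20 were kept here.

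Of the 9 genes, 4 were higher in IDA mice (*Ugp2*, *Gyg*, *Gys1* and *Ppp1r3c*), 2 were lower (*Gbe1* and *Phka1*) and the 3 phosphorylases did not pass the test. The median log2 fold change of the 9 was 0.13, against 0.02 over all tested genes. With 35% of all genes higher and 32.5% lower, these counts by themselves do not set the 9 genes apart. All the differences were small, and the called ones lay between -0.17 and 0.18 on the log2 scale. In none of the 9 did the groups of mice lie fully apart, which happened in 4.97% of all tested genes upward and 6.28% downward. With a p below 0.01 in both edgeR and DESeq2 as the rule, 3 were higher and 2 lower, against 30.6% and 29.2% of all genes, *Ppp1r3c* dropping out.

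**Figure D1:**
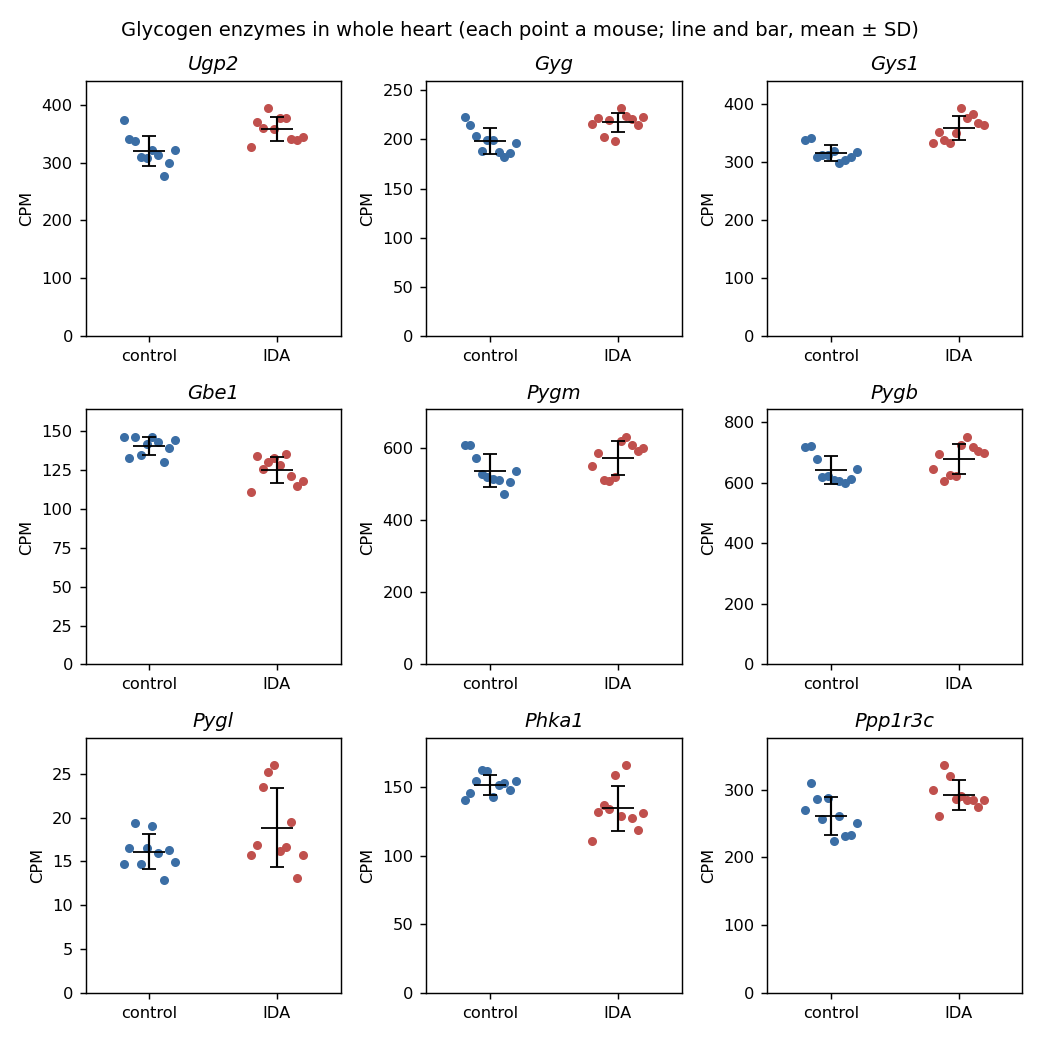
Levels of the 9 glycogen genes in each heart, in CPM from 0, with 1 point per mouse and the mean ± SD of the 10 control and 10 IDA mice as line and bar. *Gys1* lay between 298 and 343 CPM in control and 333 and 393 CPM in IDA mice, while *Pygl* was above 23 CPM in 3 IDA mice and nowhere else.

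Per kilobase of exon, control hearts held the most RNA from the muscle and brain phosphorylases, at 189 ± 15.8 CPM per kb for *Pygm* and 167 ± 12.04 CPM per kb for *Pygb* (SD, n = 10). The ranges of these 2 genes overlapped. *Gyg* (116 ± 7.75), *Ugp2* (104 ± 8.46), *Ppp1r3c* (97.7 ± 10.4) and *Gys1* (85.9 ± 3.78 CPM per kb) followed, and each overlapped with the next. *Gbe1* came at 46.9 ± 2.00, *Phka1* at 24.7 ± 1.18 and *Pygl* at 5.71 ± 0.701 CPM per kb, each apart from its neighbours in every control mouse. Synthase and branching enzyme RNA thus lay at different levels in the same hearts, with *Gys1* above *Gbe1* in every control mouse.

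*Gys1*, muscle glycogen synthase, catalyses the regulated step of synthesis. It spans 45434839 to 45456617 on chromosome 7 of mm10, on the plus strand, with 3681 bp of exon in 16 merged exons. Control levels had a lowest, median and highest value of 298, 313 and 343 CPM, and IDA levels of 333, 358 and 393 CPM. The groups overlapped, but each of the 10 IDA mice exceeded the control mean and 7 were above every control mouse. The means were 316 ± 13.9 and 359 ± 21.3 CPM (SD, n = 10 each), a 1.14-fold difference (log2 fold change 0.18, standard error 0.04, adjusted p = 0.000139). It had the smallest adjusted p of the 9 genes. The value was 0.33 after a correction for gene length and 0.18 after one for gene length and GC content, and it passed the test in both (adjusted p = 3.82e-06 and 0.000906). On unscaled counts it was 0.09 (adjusted p = 0.0654).

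*Ugp2*, which supplies UDP-glucose, lies on the minus strand of chromosome 11 from 21321141 to 21370879 (3082 bp of exon). Control levels ran from 278 through a median of 317 to 373 CPM, and IDA levels from 326 through 360 to 394 CPM. All 10 IDA mice exceeded the control mean, although 3 lay above the control range. This gave a log2 fold change of 0.16 with a standard error of 0.05 (adjusted p = 0.00312), and 0.12 without IDA mice 3, 4 and 5 (adjusted p = 0.0302). Both corrections gave larger values, of 0.22 for length and 0.46 for length and GC content (adjusted p = 0.000348 and 1.13e-06), and unscaled counts gave 0.08 (adjusted p = 0.187).

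*Gyg*, the self-glucosylating primer on chromosome 3 from 20122084 to 20155096 (minus strand), has the shortest exonic length of the 9 genes at 1701 bp. Its levels were 182, 198 and 223 CPM in control mice (lowest, median and highest) and 199, 221 and 232 CPM in IDA mice. The IDA mice filled the upper part of the control range, with 2 above it. The log2 fold change of 0.13 ± 0.04 (standard error) passed the test (adjusted p = 0.0041), but it was -0.03 after the length correction (adjusted p = 0.422) and 0.00 after the correction for length and GC content (adjusted p = 0.988). Set against genes of like length, the value for *Gyg* was thus near 0.

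*Gbe1*, the branching enzyme, was the synthesis gene that fell. It lies on the plus strand of chromosome 16 from 70313949 to 70569720 (2988 bp of exon). Control levels were 130, 142 and 146 CPM (lowest, median and highest) and IDA levels 111, 127 and 135 CPM. All 10 IDA mice were below the control mean and 7 were below every control mouse. The means were 140 ± 5.99 and 125 ± 8.48 CPM, with a log2 fold change of -0.17 (standard error 0.04, adjusted p = 0.000809). The fall remained after the length correction (-0.12, adjusted p = 0.00783), but with GC content in the correction as well the value was 0.06 (adjusted p = 0.163).

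In CPM, branching enzyme and synthase thus moved in opposite directions in the same libraries. With length and GC content corrected, both values were above 0, at 0.06 for *Gbe1* and 0.18 for *Gys1*. Within a mouse, where library scale cancels, log2 *Gbe1* over *Gys1* per kilobase ran from -1.07 to -0.77 in control and from -1.38 to -1.05 in IDA mice. In 9 of 10 IDA mice the ratio was below the lowest control value. This ratio was chosen after the values of both genes were seen and was not tested. It does not cancel a trend on GC content, which was 42.3% for *Gbe1* and 55.4% for *Gys1*.

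The promoters of these 2 enzymes are shown beside that of *Ppp1r3c*, because the search described next divides them. In the 250 bases upstream of each RefSeq start (GRCm38.p6, the assembly of mm10), both strands were searched for ACGTG and GCGTG, the core letters bound by hypoxia-inducible factor. The promoter table held 10 starts for the 9 genes, and 7 of these windows held a match, 5 of them ACGTG, compared with 38.6% and 16.6% of 32851 promoters. *Gys1*, *Gbe1* and 1 of 2 *Ugp2* starts had none. In the sequences, printed 5′ to 3′ on the gene's strand, capitals mark the matches and their reverse complements (CACGT and CACGC).
Ppp1r3c, chr19:36736605-36736854, minus strand: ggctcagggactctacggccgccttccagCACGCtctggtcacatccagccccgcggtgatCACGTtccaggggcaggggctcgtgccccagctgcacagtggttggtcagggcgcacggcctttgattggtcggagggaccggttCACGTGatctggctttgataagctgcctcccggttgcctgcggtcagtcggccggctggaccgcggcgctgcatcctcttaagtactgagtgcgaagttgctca
Gys1, chr7:45434589-45434838, plus strand: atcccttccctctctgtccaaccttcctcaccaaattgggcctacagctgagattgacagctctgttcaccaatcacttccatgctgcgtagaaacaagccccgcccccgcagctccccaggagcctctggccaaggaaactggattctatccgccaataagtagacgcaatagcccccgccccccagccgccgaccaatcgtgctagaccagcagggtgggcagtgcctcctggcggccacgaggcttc
Gbe1, chr16:70313699-70313948, plus strand: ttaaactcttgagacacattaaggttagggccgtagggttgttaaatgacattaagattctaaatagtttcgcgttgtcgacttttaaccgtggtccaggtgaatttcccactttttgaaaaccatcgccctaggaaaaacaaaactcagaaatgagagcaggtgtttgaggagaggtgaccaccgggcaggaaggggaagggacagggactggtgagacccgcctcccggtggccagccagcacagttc
The run CACGTG in the *Ppp1r3c* window holds the letters on both strands and is also an E-box. A match describes letters only, and neither binding nor response was measured.

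*Pygm* and *Pygb* carry nearly all phosphorylase RNA of these hearts, and neither passed the test. *Pygm*, on the plus strand of chromosome 19 from 6384429 to 6398459, had 472, 523 and 609 CPM in control mice (lowest, median and highest) and 508, 588 and 630 CPM in IDA mice. *Pygb*, on the plus strand of chromosome 2 from 150786796 to 150831748, had 599, 621 and 720 CPM in control and 605, 697 and 751 CPM in IDA mice. The groups overlapped almost completely in both genes. The log2 fold changes were 0.09 for *Pygm* (95% confidence interval -0.02 to 0.20, adjusted p = 0.126) and 0.08 for *Pygb* (-0.02 to 0.18, adjusted p = 0.142). After the length correction *Pygb* was higher in IDA mice (0.24, adjusted p = 0.00103), and on unscaled counts both values were just below 0 (-0.00 and -0.01). Without IDA mice 3, 4 and 5 both were called higher, at 0.13 for *Pygm* (adjusted p = 0.016) and 0.11 for *Pygb* (adjusted p = 0.0239). These mice had the largest totals of the IDA group, at 7702288, 7459363 and 7833916 read pairs, against at most 7159515 in the others. Their *Pygm* counts of 4117, 4071 and 4154 lay within the range of the other mice, so their lower CPM came with the larger divisor.

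The deposited counts of these 2 genes hardly varied between mice. *Pygm* had between 3955 and 4225 read pairs in every library, a coefficient of variation of 1.76%, close to the 1.56% of counting error alone, and *Pygb* had between 4700 and 5324 (2.94%). Library totals varied 1.34-fold over the same mice. After scaling, the coefficients of variation were 8.64% for *Pygm* and 7.65% for *Pygb*, so dividing by library size added most of the spread in their CPM. *Pygm* had 1.44 and *Pygb* 1.27 read pairs per base of exon. After the removal of duplicates no tested gene with at least 200 bp of exon exceeded 2.39 in any library. Among the 104 tested genes at least as dense as *Pygb*, the counts of a gene had a median coefficient of variation of 2.97%, against 19.2% over all tested genes, and 71.2% were called higher in IDA mice and 0% lower. Whether counts this dense still follow the RNA level was not tested. *Gyg*, *Ugp2*, *Ppp1r3c* and *Gys1* had 0.91, 0.82, 0.77 and 0.68 read pairs per base of exon. The 901 tested genes from 0.6 up to the density of *Pygb* had a median log2 fold change of 0.19, and of 0.09 on unscaled counts. The values of *Gyg*, *Ugp2*, *Ppp1r3c* and *Gys1*, at 0.13 to 0.18 in CPM and 0.04 to 0.09 on unscaled counts, did not exceed these medians. The 6594 tested genes under 0.1 read pairs per base had medians of -0.13 in CPM and -0.22 on unscaled counts. *Prkaa1*, *Pgm2l1* and *Ppp1r3e*, described below, were among them, at 0.08, 0.02 and 0.01.

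**Figure D2:**
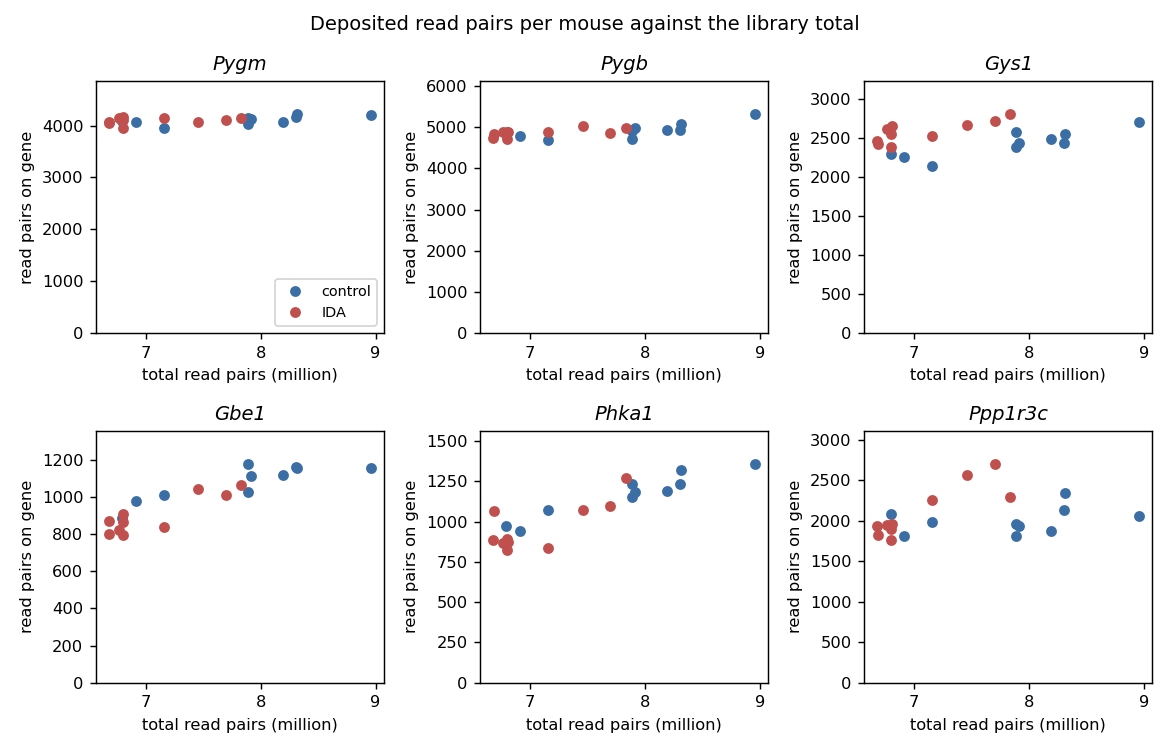
Deposited read pairs on 6 glycogen genes (from 0) against the total read pairs of each library, with 1 point per mouse and blue for control, red for IDA. *Pygm* stays between 3955 and 4225 whatever the total, while *Gbe1* (795 to 1179) and *Phka1* (821 to 1360) rise with it.

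The phosphorylase isoforms kept nearly the same proportions in both groups. Of summed phosphorylase counts per kilobase, *Pygm* made 52.2% ± 0.545 in control and 52.3% ± 0.609 in IDA mice, and *Pygb* 46.3% ± 0.582 and 46.0% ± 0.311 (SD, n = 10 each). *Pygl* made 1.58% ± 0.203 and 1.77% ± 0.539. None of the shares passed a two-sided permutation test over mice (adjusted p = 0.678, 0.297 and 0.406, over the 3 shares and 2 ratios). Because *Pygm* and *Pygb* counts hardly moved, their shares carry the same limit.

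Synthase and branching enzyme were also set against *Pygm* in the same mouse. Since the counts of *Pygm* hardly varied, these ratios follow the unscaled counts of the other gene, whose log2 fold changes were 0.09 for *Gys1* (adjusted p = 0.0654) and -0.26 for *Gbe1* (adjusted p = 0.00176), and they are no separate evidence. Log2 *Gys1* over *Pygm* per kilobase was -1.13 ± 0.08 in control and -1.04 ± 0.06 in IDA mice, and all 10 IDA mice exceeded the control mean (permutation test, adjusted p = 0.0259). Without IDA mice 3, 4 and 5 the difference fell from 0.09 to 0.06 (adjusted p = 0.14, exact permutation test). Log2 *Gbe1* over *Pygm* was -2.01 ± 0.12 and -2.26 ± 0.16, with all 10 IDA mice below the control mean (permutation test, adjusted p = 0.0065). *Gbe1* counts rose with the library total, and IDA libraries were smaller (medians of 6806177 against 7902932 read pairs). The ratio was -2.27 and -2.13 in control mice 2 and 1, the smallest control libraries at 6797180 and 6915707 read pairs. It was -2.04 to -1.89 in the other control mice. The permutation test on this ratio cannot separate diet from library size, whose part was not tested.

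*Pygl*, the liver isoform on chromosome 12 from 70190815 to 70227683 (minus strand), was low, with 91 to 208 read pairs per library. Control levels were 12.9, 16.1 and 19.3 CPM (lowest, median and highest) and IDA levels 13.1, 16.7 and 26.0 CPM. The medians nearly coincided, and the IDA group had 3 high mice, at 23.5, 25.2 and 26.0 CPM in IDA mice 3, 4 and 5. The log2 fold change of *Pygl* was 0.23 (95% confidence interval -0.00 to 0.47, adjusted p = 0.0768), and without those 3 mice it was -0.01 (adjusted p = 0.957). With the length correction it was 0.25 (adjusted p = 0.0549). It was called higher with length and GC content (0.37, adjusted p = 0.00663), with library size as a covariate (0.33, adjusted p = 0.0392) and without IDA mouse 9 (0.28, adjusted p = 0.0285). The same 3 mice had summed macrophage markers of 456 to 506 CPM, against 381 to 441 in the other IDA and 405 to 473 in control mice (5 tested, 2 higher and 2 lower in IDA mice). Their neutrophil markers summed to 17.3 to 93.0 CPM, against 6.60 to 32.5 in the other IDA and 4.11 to 17.9 in control mice (2 of 3 tested were higher, and *S100a8* and *S100a9* were above 0 in every mouse). Thymus and T cell markers, low throughout, summed to 3.74 to 4.99 CPM in the 3 mice and at most 2.78 and 1.74 CPM in the other IDA and in control mice. Of the 6 endothelial markers tested, 3 were higher and 2 lower in IDA mice. In the 3 mice they summed to 1621 to 1894 CPM, and the other IDA mice had 1430 to 1688 and control mice 1542 to 1712 CPM. Cardiomyocyte markers (3 of 8 higher, 1 lower in IDA mice) summed to 3878 to 4350 CPM in the 3 mice, against 4124 to 5441 in the other IDA mice. The part of these markers in the *Pygl* levels was not tested. Liver markers were highest in control mouse 4 and IDA mouse 7 (70.4 and 145 CPM summed), where *Pygl* was at 14.7 and 16.7 CPM.

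*Phka1* lies on the minus strand of chromosome X from 102513975 to 102644246 and has the longest exonic length of the 9 genes, at 6115 bp in 33 merged exons. Control levels were 141, 152 and 162 CPM (lowest, median and highest) and IDA levels 111, 131 and 166 CPM. In 8 of 10 IDA mice the level was below every control mouse, and in 1 it was above. *Phka1* had a log2 fold change of -0.17 with a standard error of 0.06 (adjusted p = 0.0103), but it was 0.21 after the length correction and 0.28 after the correction for length and GC content (adjusted p = 9.92e-05 and 6.28e-06). Its direction thus rests on the scale chosen, lower in CPM and higher when set against genes of like length.

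**Figure D3:**
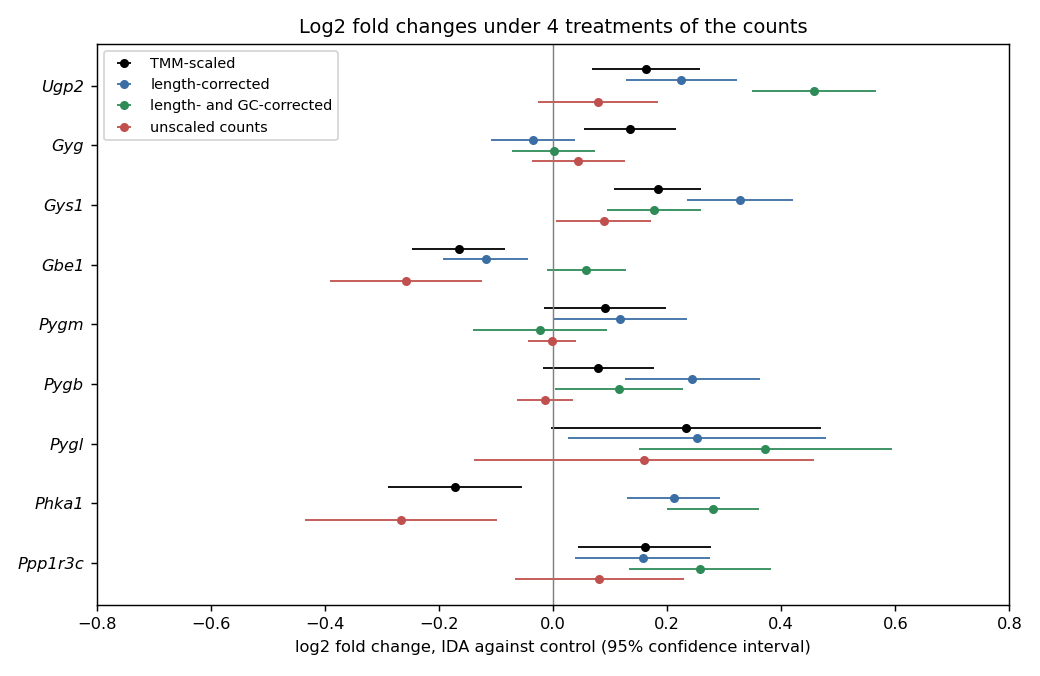
Log2 fold change of the 9 genes between IDA and control mice, with 95% confidence intervals, for TMM-scaled, length-corrected, length- and GC-corrected and unscaled counts. The values of *Gys1*, *Ugp2*, *Ppp1r3c* and *Pygl* stay above 0 in all 4. On unscaled counts the intervals of *Ugp2*, *Ppp1r3c* and *Pygl* include 0, as does that of *Pygl* on TMM-scaled counts. The values of *Gyg*, *Gbe1*, *Pygm*, *Pygb* and *Phka1* change sign, and *Pygm* and *Pygb* lie near 0 on unscaled counts.

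Further genes for subunits of phosphorylase kinase, all but *Phkb* named after their values were seen, were lower, higher or did not pass the test. The regulatory beta subunit *Phkb* fell from 177 ± 7.30 to 134 ± 14.9 CPM with no overlap between the groups (log2 fold change -0.40, adjusted p = 1.01e-06), although its value was 0.01 with the correction for length and GC content. The liver-type alpha subunit *Phka2* had a log2 fold change of 0.01 (95% confidence interval -0.11 to 0.14, adjusted p = 0.849), and 0.34 after the length correction. The muscle catalytic subunit *Phkg1* rose from 49.7 ± 6.97 to 61.0 ± 10.8 CPM (0.29, adjusted p = 0.0126), though its exons overlap those of *Sumf2* on the other strand and the counting ignored strand. The other catalytic subunit *Phkg2* was higher in CPM (0.20, adjusted p = 0.0119) but at 0.01 after the length correction, and its exons overlap *Gm166* on the other strand. Of genes for calmodulin, the delta subunit, *Calm3* rose with no overlap between the groups (0.25, adjusted p = 1.71e-06) and *Calm2* was at 0.13 (adjusted p = 0.00414). After the length correction they stood at 0.17 and -0.13, and with GC content *Calm3* was at -0.04. Per kilobase, control hearts held 38.3 CPM of *Phkb*, 24.7 of *Phka1*, 21.1 of *Phkg1* and 10.99 of *Phka2*.

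*Ppp1r3c*, the targeting subunit also called PTG, lies on the minus strand of chromosome 19 from 36731731 to 36736604 (2676 bp of exon in 2 merged exons). Its levels were 224, 259 and 310 CPM in control mice (lowest, median and highest) and 260, 286 and 336 CPM in IDA mice. The groups overlapped, and 9 of 10 IDA mice were above the control mean. The log2 fold change of 0.16 ± 0.06 (standard error) passed the test (adjusted p = 0.015), and both corrections kept it (0.16 and 0.26, adjusted p = 0.0236 and 0.00119), while unscaled counts gave 0.08 (adjusted p = 0.338). The call ended without IDA mouse 3 (0.12, adjusted p = 0.0554), without control mouse 8 (0.13, adjusted p = 0.0507), with library size as a covariate (0.13, adjusted p = 0.107) and without IDA mice 3, 4 and 5 (0.09, adjusted p = 0.15).

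The related targeting subunit *Ppp1r3a*, typical of striated muscle, fell instead, and by far more. It lies on the minus strand of chromosome 6 from 14713822 to 14755274. Control levels were 237.7, 326 and 379 CPM (lowest, median and highest) and IDA levels 123, 167 and 221 CPM. The groups did not overlap, as was the case for 6.28% of all tested genes in this direction. IDA levels were 0.523 of control levels (log2 fold change -0.94 ± 0.10 standard error, adjusted p = 2.07e-07). It was smaller but still called after the length correction (-0.48, adjusted p = 2.13e-06) and the correction for length and GC content (-0.21, adjusted p = 0.000876).

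The targeting subunits *Ppp1r3b* and *Ppp1r3e* were lower as well. *Ppp1r3b* fell from 96.9 ± 9.27 to 69.1 ± 15.6 CPM (log2 fold change -0.49, adjusted p = 0.000176), and *Ppp1r3e*, at only 9 to 37 read pairs per library, from 3.45 ± 0.883 to 2.31 ± 0.598 CPM (-0.59, adjusted p = 0.00433). *Ppp1r3d* (0.00, 95% confidence interval -0.16 to 0.17) and *Ppp1r3f* (-0.13, -0.34 to 0.08) did not pass the test and were named after their values were seen. Of the 6 targeting subunits tested, *Ppp1r3c* was the one that rose and also had the highest level per kilobase in control hearts, at 97.7 CPM per kb against 45.0 for *Ppp1r3a* and 23.0 for *Ppp1r3b*. Per base of exon, *Ppp1r3c* had 0.77 read pairs, *Ppp1r3a* 0.26, *Ppp1r3b* 0.15 and *Ppp1r3e* 0.01. Tested genes from 0.6 up to the density of *Pygb* had a median log2 fold change of 0.19, and those under 0.1 had -0.13. The part of density in the contrast between these subunits was not tested.

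**Figure D4:**
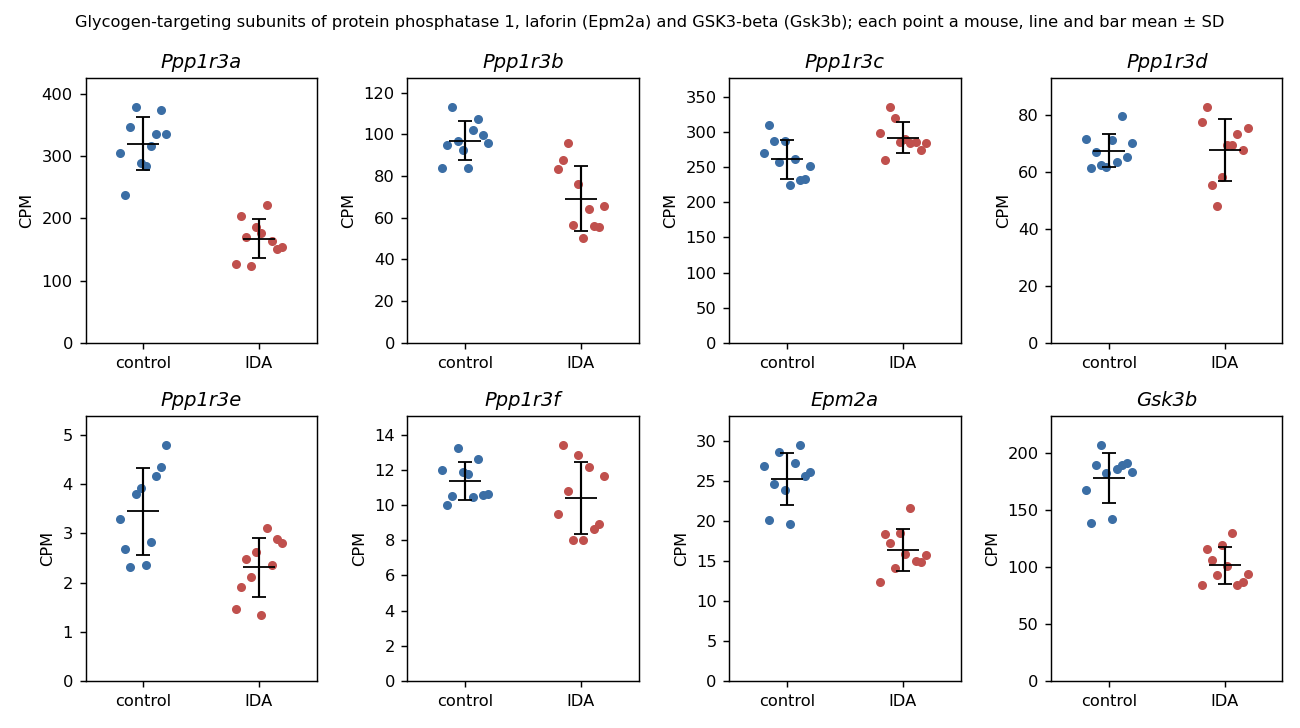
Levels in CPM (from 0) of 6 glycogen-targeting subunits of protein phosphatase 1, laforin (*Epm2a*) and *Gsk3b*, with 1 point per mouse and mean ± SD of 10 mice per group. *Ppp1r3a* and *Gsk3b* are lower in every IDA mouse than in any control mouse, while *Ppp1r3c* is higher in 9 of 10 IDA mice than the control mean.

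Beyond the 9 genes, 41 further genes of glycogen metabolism and its control were listed, of which 39 were tested (*Gys2*, the liver synthase, had 19 read pairs over all 20 mice, and *Ppp1r3g* had 142). Of the 39, 12 were higher, 14 lower and 13 did not pass the test, with a median log2 fold change of 0.00, which again is close to the 35% and 32.5% of all genes. The 12 with the largest changes were all lower in IDA mice. After the length correction 11 of these 12 were still called lower, *Pgm2l1* being the exception (-0.13, adjusted p = 0.119). Over all tested genes 23.5% were called lower with this correction, and 2598 of the 4416 genes called lower before it stayed so. The 12 were chosen for large changes among called genes, so neither figure sets them apart. With GC content in the correction as well, *Pgm2l1*, *Prkaa2* and *Phkb* lost the call, at values above 0.

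Laforin, the glycogen phosphatase encoded by *Epm2a*, fell from 25.3 ± 3.30 to 16.4 ± 2.64 CPM, and 9 of 10 IDA mice were below every control mouse. With a log2 fold change of -0.63 (adjusted p = 3.93e-06) it went against its length class, since its exons span only 1079 bp, and the value was -0.90 after the length correction and -0.86 with GC content as well (adjusted p = 1.68e-06 and 2.28e-06). *Epm2aip1*, whose product binds laforin, fell from 130 ± 15.5 to 69.0 ± 11.8 CPM with no overlap (-0.92, adjusted p = 1.46e-07). Malin (*Nhlrc1*), the ubiquitin ligase that acts with laforin, had a log2 fold change of 0.13 (95% confidence interval -0.02 to 0.27, adjusted p = 0.116) and was named after its value was seen.

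Of 14 kinase genes listed for acting on glycogen synthase, 6 were lower and 4 higher, near the 32.5% and 35% of all genes. *Gsk3b*, a kinase that inhibits glycogen synthase, had 139, 185 and 207 CPM in control mice (lowest, median and highest) and 84.1, 97.6 and 129 CPM in IDA mice. The groups did not overlap (log2 fold change -0.81, adjusted p = 2.1e-07), and the corrections left -0.28 and -0.18 (adjusted p = 7.36e-06 and 0.000175). A stretch of its exons is shared with *BC031361* on the other strand, and reads of the 2 genes cannot be told apart there. The catalytic subunits of AMP-activated kinase fell too, with log2 fold changes of -0.65 for *Prkaa1* and -0.69 for *Prkaa2*, as did its beta subunit *Prkab2* (-0.53) and the protein kinase A subunit *Prkacb* (-0.50), with adjusted p between 3.61e-07 and 2.18e-06. With GC content in the correction *Prkaa2* was at 0.03 (adjusted p = 0.552), and the other 3 stayed called, at -0.17, -0.23 and -0.09. The 4 that were higher, named after their values were seen, were *Gsk3a* (0.20, adjusted p = 0.000126), *Prkab1* (0.18, 0.00652), *Prkag1* (0.21, 9.31e-05) and *Prkaca* (0.10, 0.0245). With length and GC content all 4 were below 0 (-0.11, -0.06, -0.05 and -0.10), and the exons of *Gsk3a* overlap *9130221H12Rik* on the other strand.

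*Pgm2l1*, a glucose bisphosphate synthase related to the phosphoglucomutases, fell from 26.7 ± 3.59 to 16.7 ± 2.20 CPM (-0.68, adjusted p = 7.63e-07), with a value of 0.07 after the correction for length and GC content. Lysosomal acid glucosidase (*Gaa*) rose from 342 ± 15.4 to 389 ± 28.1 CPM (0.18, adjusted p = 0.000369) and also passed with both corrections (0.35 and 0.11). *Gaa* was named after its values were seen.

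**Figure D5:**
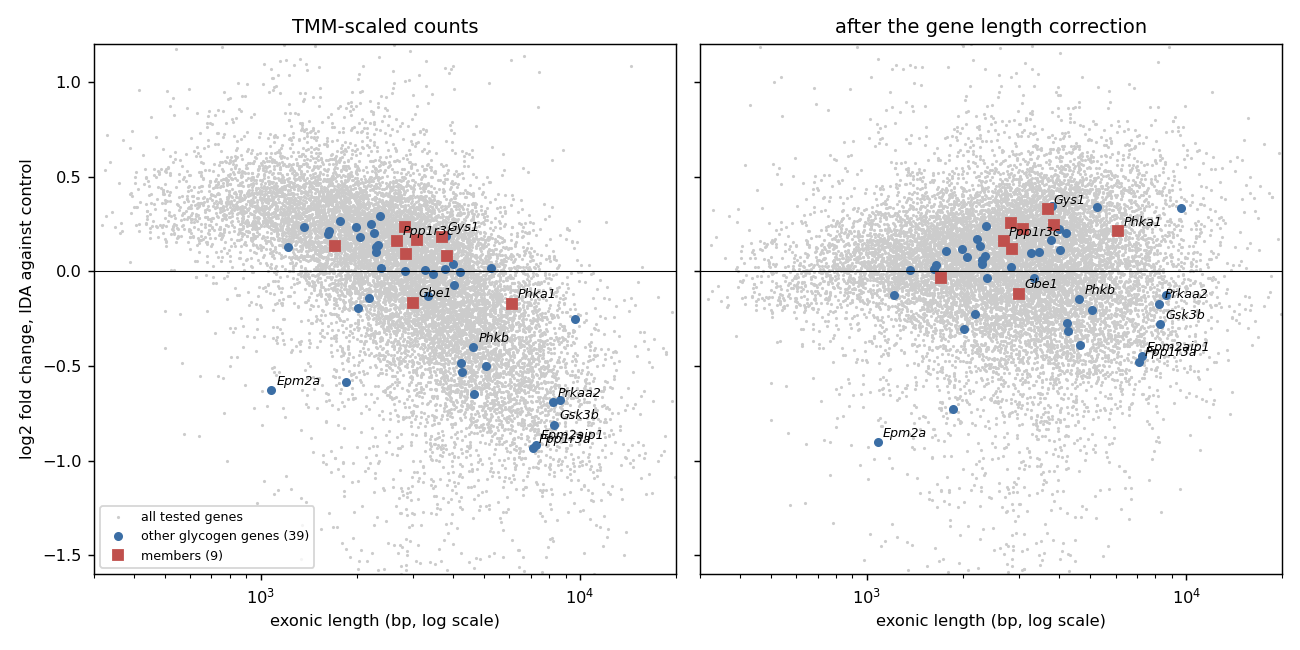
Log2 fold change between IDA and control mice against exonic length (log axis) for all tested genes in grey, the 39 other glycogen genes in blue and the 9 members in red, before (left) and after (right) the gene length correction. Longer genes are lower on the left, the trend is gone on the right, *Phka1* moves above 0, and *Epm2a*, *Ppp1r3a* and *Epm2aip1* stay below it. Genes beyond the axis limits are not drawn.

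Long genes tended to be lower and short genes higher in IDA mice across all tested genes. The 12 named genes had a median exonic length of 4868 bp, against 2988 bp for the 9 members and 2900 bp for all tested genes. With the correction, 5 of the 9 genes were higher and 1 lower, against 31.5% and 23.5% of all genes, and with GC content as well 5 were higher and 0 lower, against 26.8% and 19.9%. With library size as a covariate 2 were higher (*Gys1* and *Pygl*) and 1 lower (*Gbe1*), against 29.1% and 29.1%. On unscaled counts 0 were higher and 2 lower, against 21.1% and 36.1%. Without IDA mice 3, 4 and 5, 5 were higher and 2 lower, against 33.5% and 34.8%. Without control mouse 4 and IDA mouse 7, the highest in liver markers, 4 were higher and 2 lower, against 4581 and 4369 of the 13590 tested genes. *Gys1* was then at 0.17 and *Gbe1* at -0.19. Whether these are the mice that the original study excluded is not known. The correction removes any trend on length, and whether that trend is technical or biological cannot be told apart here.

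The library numbers in the column names form 2 runs, and both diets are in each. In the first run (5 control and 7 IDA mice), 6 of the 9 genes were higher and 1 lower, against 30.2% and 28.7% of all genes. In the second run (5 control and 3 IDA mice), 0 were higher and 1 was lower (*Phka1*, -0.29, adjusted p = 0.021), against 19.4% and 24.1%. *Gys1* was at 0.24 in the first run and 0.07 in the second (adjusted p = 0.000514 and 0.369), and *Gbe1* at -0.16 and -0.20 (adjusted p = 0.0166 and 0.051). *Pygm* was at 0.20 and -0.06 (adjusted p = 0.0115 and 0.512), *Pygb* at 0.17 and -0.06 (adjusted p = 0.0123 and 0.491), and *Ppp1r3c* at 0.27 and 0.07. *Ppp1r3a* (-0.97 and -0.91) and *Epm2a* (-0.64 and -0.65) were lower in both runs, whereas *Ppp1r3b* was at -0.69 and -0.13 (adjusted p = 7.18e-05 and 0.307). With the run as a covariate and all 20 mice, 4 of the 9 genes were higher and 2 lower, against 4782 and 4437 of the 13590 tested genes. *Gys1* was then at 0.18, *Gbe1* at -0.17 and *Ppp1r3c* at 0.19 (adjusted p = 0.000288, 0.00102 and 0.00183). Whether the runs differ was not tested.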

How the data were processed

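Whole-heart poly-A RNA of 20 mice was sequenced as 75-bp read pairs. STAR was used by the authors for alignment to mm10 and samtools for removing PCR duplicates, and the authors deposited read-pair counts per gene, without normalization, from featureCounts (version 1.4.5-p1), with the merged exonic length of each gene and without regard to strand. Diet was taken from the labels, which give the deficient diet as under 2 ppm iron in one field and over 2 ppm in another. The methods of the original study place the lower bound of the deficient diet at 2 ppm and call the control diet iron-adjusted.

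In R 4.3.3, counts were scaled by TMM in edgeR (version 4.0.16) and tested with its quasi-likelihood test, with diet as the only factor, on 13590 genes (those reaching 1 CPM in 10 or more mice, with 9830 left out). P-values were adjusted by Benjamini-Hochberg, and calls used 0.05. The total of 6682177 to 8960688 read pairs per mouse leaves a median of 122.5 read pairs in control mice for *Pygl*, the least expressed of the 9 genes. For the length correction, the deviation of each mouse from a gene's mean was smoothed on log2 exonic length by loess (span 0.5, degree 1) and the curve removed, and a further curve used GC content of annotated transcripts (99.2% of tested genes). Alternatives were DESeq2 (version 1.42.0), a call of p below 0.01 in both packages, other size factors, no filter, library size as a covariate, the replicate number as a block, and leaving out each mouse. Unscaled counts, the library-number runs and the sets of left-out mice were added after the values were seen. Shares and ratios used counts per kilobase, with two-sided permutation tests (100000 resamples with 10 mice per group, exact with fewer).

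The named genes are the 9 members, and the 12 others of the pathway list with the largest log2 fold changes among those called. Any other gene of the list was named after its values were seen. Some genes of the list are not reported here. Members and lists were chosen with earlier results of these data known. Simulated data with known changes were used to test the steps. Promoters are from RefSeq (GRCm38.p6). The labels do not say that mice were independent litters, so p-values measure the spread between these mice.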

Additional observations from a re-analysis of the deposited data

Results flagged for a closer look

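In 52 groups of 10 mice (26 quantities), 5 had a mouse separated from the others by more than Dixon's critical value allows, and chance flags about 1 group in 20. *Pgm2l1* was lowest in control mouse 2, at 18.2 CPM with the next at 24.9, and highest in IDA mouse 2, at 22.0 CPM with the next at 18.1. *Prkab2* was lowest in control mouse 6, at 124 CPM with the next at 158. The share of *Pygm* in phosphorylase was lowest in control mouse 8, at 50.8% with the next at 51.8%, and that of *Pygb* was highest in the same mouse, at 47.8% with the next at 46.5%, the 2 shares being nearly complementary. No group of the 9 members' own levels in CPM had such a mouse.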

How the results depend on the processing

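The 4 higher members became 2 with library size as a covariate, where *Ugp2*, *Gyg* and *Ppp1r3c* lost the call and *Pygl* gained it, and 0 on unscaled counts and within the second library-number run. The 2 lower members became 1 with the length correction, the library size covariate and within each run, and 0 with length and GC content. The 12 other genes called higher became 7, 5 and 2 with the library size covariate, unscaled counts and the second run. Leaving out each mouse gave 3 to 5 higher and 2 lower members, and 11 to 13 higher and 14 to 15 lower others. The replicate block gave 4, 2, 12 and 14, and changed no call. Same-numbered mice correlated between -0.28 and 0.26, and 3 of 10 pairs exceeded 0.1. For 3 of the 10 control mice the same-numbered IDA mouse correlated best. These values cannot decide whether the numbers pair the mice. DESeq2, other size factors and no filter also left these 4 counts as they were.

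With length and GC content in the correction, the sign turned for *Gbe1* (0.0579), *Pygm* (-0.0227), *Phka1* (0.28), *Prkaa2* (0.0308), *Pgm2l1* (0.0713) and *Phkb* (0.0127), and with length alone for *Gyg* (-0.035) and *Phka1* (0.211). *Pygm* and *Pygb* also turned with the library size covariate (-0.0578 and -0.0475), on unscaled counts (-0.00162 and -0.0142) and within the second run (-0.0613 and -0.0639), and *Pygl* without IDA mice 3, 4 and 5 (-0.0059). *Ppp1r3a*, *Epm2aip1*, *Gsk3b*, *Prkaa1*, *Epm2a*, *Prkab2* and *Prkacb* stayed called lower in all 33 alternatives.

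The *Pygm* share difference was -0.101 within the second run and ranged from -0.0382 to 0.256 percentage points when a mouse was left out, being below 0 without control mouse 8. The *Pygl* share difference was -0.139 without IDA mice 3, 4 and 5. The *Gys1* to *Pygm* ratio difference lost its call within the second run (0.128), within the first (0.0483) and without IDA mice 3, 4 and 5 (0.0577), and the *Gbe1* ratio within the second run (-0.139). Where fewer mice were used the spread is less well known, and the other causes were not tested.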

Other observations

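After each group's mean was removed, the levels of some of the 9 genes varied together over the 20 mice. *Pygm* and *Pygb* had the highest Pearson correlation of log2 CPM (r = 0.98), and *Pygm* also went with *Gyg* and *Gys1* (0.83 each). *Gbe1* went with *Ugp2* (0.66) and *Phka1* (0.60), and hardly with *Pygm* (0.06) or *Gys1* (0.08). *Pygl* ran against *Pygb* (-0.41). These values are descriptions over mice that share library scaling and depth.

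Among all tested genes, those most like *Pygm* were *Actn2* (r = 0.99), *Gnas* and *Hadha*, and those most like *Pygb* were *Eef2* (0.98), *Gnas* and *Actn2*. *Actn2* and *Eef2* had 1.56 and 1.47 read pairs per exonic base, as dense as the 2 phosphorylases, whereas *Hadha* had 1.08 and *Gnas* 0.38. *Gyg* was most like *Psma1* (0.94), *Cct2* and *Psmd12*, which encode proteasome and chaperonin subunits, and *Gys1* like *Nrd1* (0.90), *Ddb1* and *Uba1*. *Ugp2* was most like *Bnip3* (0.88), a mitophagy receptor, which was itself higher in IDA mice (log2 fold change 0.26, edgeR, adjusted p = 3.19e-05). *Gbe1* was most like *Clip4* (0.86), *Insig2* and *Lypla1*, all 3 of them lower in IDA mice (-0.30, -0.14 and -0.27). *Phka1* was most like *9430020K01Rik* (0.89), *Plekhg1* and *Rbms1*, which fell by 0.99, 1.00 and 0.71 on the log2 scale. *Ppp1r3c* was most like *Mrap* (0.83), *Srf* and *Gm9054*, and *Pygl* like *Emp1* (0.83), *Nox4* and *Scd1*.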
